A study of Homo sapiens with 16 samples.

Results

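The comparison described here set 2 RNA-seq libraries of cells kept for 12 h in latrunculin B (LatB) against 3 control libraries of the 0 h time point. They were picked by their titles and are 5 of the 16 libraries of a time course. All 16 came from SA121-derived NGN3-GFP cells, a human embryonic stem cell line with a reporter in the NEUROG3 locus, which had been taken to the pancreatic progenitor (PP) stage at day 19. The LatB groups (3, 6, 12 and 24 h) received the drug at 0.5 µM, and the control 24 h group received its solvent, DMSO. The control 0 h samples are tagged as DMSO in the labels, while the series text says that they were taken before treatment. No library of DMSO alone at 12 h was part of the series as given, so the drug and 12 h in culture cannot be told apart in the main comparison, and control 24 h was used as a second reference. The cells are all of the same line, and nothing in the labels says whether replicates were separate cultures, so p-values measure the spread between these libraries only. That spread was estimated over all 16 libraries together. Lower RNA of a gene in a bulk sample can mean fewer cells of a type or less RNA per cell, which cannot be told apart here.

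LatB binds actin monomers and so takes down actin filaments. A pair of transcriptional programmes read the state of actin: MRTF, which is held by actin monomers and otherwise joins the factor SRF on genes of the contractile cytoskeleton, and YAP, which joins TEAD factors on DNA when the cytoskeleton is under tension. In the embryonic pancreas a share of the progenitors switches on NEUROG3, leaves the epithelium and becomes endocrine, while Notch signalling holds the others back.

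Libraries held 23609727 to 33515398 estimated reads, of which 12 h replicate 1 had the lowest total and 12 h replicate 2 had 29064421. Levels are given in CPM, the reads of a gene as a share of the library's scaled total. The markers of the labelled cell type were present at 12 h: PDX1 stood at 307 and 253 CPM in replicates 1 and 2, SOX9 at 389 and 317 CPM and NKX6-1 at 98.3 and 98.2 CPM. The acinar factor PTF1A, which also marks early progenitors, was at 0.131 and 0.0676 CPM, close to absent, as it was at 0 h (0.279, 0.302 and 0.170 CPM). The 12 h libraries stood apart from each other more than any other pair of libraries of the same group. Among genes with a mean log2 CPM of at least 3 in the pair, 339 of 10519 (3.22%) differed by at least 1 on the log2 scale, 216 higher in replicate 2 and 123 higher in replicate 1, against 8 to 112 genes in the 13 other pairs. For this reason each result is given with the value of each library, and a gene was called agreeing when it passed the test, when both 12 h libraries lay on the same side of all 3 libraries of 0 h, and when they lay within 0.5 of each other in log2 CPM. Near that limit, BMP2 (difference 0.49) and RFX6 (-0.49) were counted as agreeing, and FST (0.53) and CLDN3 (-0.53) were not.

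Of 16705 genes tested, edgeR called 35.8% at 12 h against 0 h at an adjusted p under 0.05, 19.1% higher and 16.8% lower. The shares of 19.1% and 16.8% are the background for each count of list members called at 12 h against 0 h below. Agreeing genes made up 14.7% of all genes on the higher side (2460) and 13.6% on the lower side (2274). Of the called genes, 173 had overlapping groups, and 1081 had separate groups but lay over 0.5 apart between the 12 h libraries. The test took its spread from all 16 libraries, and the 12 h pair lay further apart than the others, so that spread may be too small for 12 h. With only the 5 libraries compared in the fit, 2828 genes were called in place of 5988. With a change of at least 1 on the log2 scale, 535 agreeing genes remained, 205 higher and 330 lower, while 688 called genes were higher by as much and 578 lower. Of the 4734 agreeing genes, 3771 were also called in the same direction against control 24 h and 0 in the opposite direction by the same edgeR test. The same 12 h libraries enter both comparisons and the controls differed little, so this is not independent evidence. Against control 24 h, 34.1% of genes were called, 18.4% higher and 15.7% lower. The edgeR test called 42 genes between control 24 h and control 0 h, of which 15 were among the agreeing genes, and the 42 are 0.251% of all genes.

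**Figure D1:**
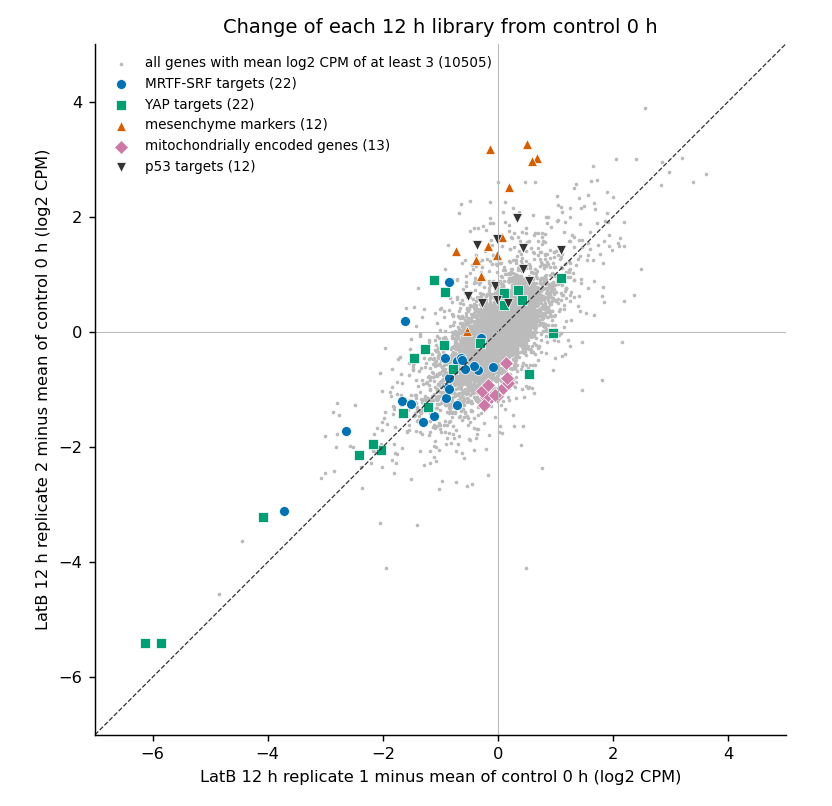
Each point is a gene, with its log2 CPM in 12 h replicate 1 (x axis) and replicate 2 (y axis) minus the mean of control 0 h, and the dashed line marks equal change. MRTF-SRF targets lie mostly near the line and below 0 on both axes. YAP targets are more scattered, with a median change of -1.02 in replicate 1 and -0.37 in replicate 2. Mesenchyme markers lie above the line (median of replicate 2 minus replicate 1 1.64), and all 13 mitochondrially encoded genes lie below it (median -1.01).

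Genes of the contractile cytoskeleton fell in both libraries. Of 22 MRTF-SRF targets measured, 18 were called lower and 0 higher, 15 of them agreeing, where 16.8% of all genes were called lower, and their median log2 fold change was -0.75, beside a median of 0.01 over all genes. Counted without 12 h replicate 1 or without replicate 2, 19 were called lower each time. VCL, which encodes vinculin of focal adhesions, was at 359, 357 and 351 CPM at 0 h and at 144 and 120.1 CPM at 12 h (log2 fold change -1.43, SE 0.11, edgeR adjusted p 1.26e-06). MYL9, a myosin light chain, went from 123, 123 and 119.7 CPM at 0 h to 38.3 and 52.8 CPM at 12 h (log2 fold change -1.42, SE 0.19, edgeR adjusted p 7.29e-05). TPM1, a tropomyosin that coats actin filaments, went from 433, 526 and 522 CPM at 0 h to 172 and 207 CPM at 12 h (log2 fold change -1.38, SE 0.16, edgeR adjusted p 3.03e-05). In each of these genes both 12 h libraries lay far below all 3 libraries of 0 h. The actin genes themselves fell too: ACTB, cytoplasmic beta-actin, was at 2503, 2659.5 and 2528 CPM at 0 h and 1373 and 1153 CPM at 12 h (log2 fold change -1.02, SE 0.09, edgeR adjusted p 2.59e-06). ACTG1, gamma-actin, was at 2347, 2327 and 2349 CPM at 0 h and 1289 and 1209.5 CPM at 12 h (log2 fold change -0.91, SE 0.10, edgeR adjusted p 2.53e-05). The gene for the factor SRF was lowered less, from 70.3, 72.2 and 71.2 CPM at 0 h to 53.2 and 46.9 CPM at 12 h (log2 fold change -0.51, SE 0.09, edgeR adjusted p 0.000489). Among smooth muscle members, CNN1 (calponin) was at 18.5, 21.1 and 20.3 CPM and then at 1.44 and 2.23 CPM (log2 fold change -3.42, SE 0.45, edgeR adjusted p 7.8e-05), and the 12 h libraries differed by 0.60. The 4 members that were not called included ACTA2, smooth muscle actin, whose 12 h libraries lay on either side of the 0 h level at 14.1 and 46.1 CPM against 28.7, 24.8 and 23.03 CPM. FLNC, a filamin, was at 17.8 and 62.1 CPM against 56.4, 53.7 and 53.9 CPM. In both genes replicate 1 was low and replicate 2 was at or above 0 h.

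The promoters of these genes were read from RefSeq (build GRCh38.p14), 250 bases before the start of the gene, and searched on both strands for the SRF box, the site that SRF is known to bind. It was found in 6 of the 19 MRTF-SRF targets with a promoter in the table (31.6%: ACTG1, CNN2, FHL2, FLNA, SRF and TPM4) in 1.15% of 27195 promoters and in 1.07% of those of genes tested. The promoters of the 3 members below are shown because they hold the box and their genes fell in both libraries. Each is written 5′ to 3′ on the strand of its gene with the box in capitals. SRF lies at chr6:43171019-43171268 (plus strand), ACTG1 at chr17:81512800-81513049 (minus strand) and TPM4 at chr19:16067288-16067537 (plus strand).
SRF: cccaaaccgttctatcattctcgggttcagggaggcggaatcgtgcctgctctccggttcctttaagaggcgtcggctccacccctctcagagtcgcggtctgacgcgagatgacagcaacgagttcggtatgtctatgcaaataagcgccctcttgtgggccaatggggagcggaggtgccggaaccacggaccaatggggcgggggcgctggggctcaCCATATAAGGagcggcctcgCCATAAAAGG
ACTG1: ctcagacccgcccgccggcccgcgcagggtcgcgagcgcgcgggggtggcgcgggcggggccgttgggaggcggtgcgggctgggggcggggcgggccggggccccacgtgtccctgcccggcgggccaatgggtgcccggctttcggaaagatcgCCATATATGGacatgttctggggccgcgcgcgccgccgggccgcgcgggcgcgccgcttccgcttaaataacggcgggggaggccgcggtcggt
TPM4: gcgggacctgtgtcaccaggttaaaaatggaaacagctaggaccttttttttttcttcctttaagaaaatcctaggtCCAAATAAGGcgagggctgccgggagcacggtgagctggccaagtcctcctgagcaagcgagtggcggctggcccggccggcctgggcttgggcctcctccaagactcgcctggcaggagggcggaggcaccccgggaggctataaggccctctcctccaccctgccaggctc
TPM4, another tropomyosin, was at 840.4, 845 and 855 CPM at 0 h and 472 and 427 CPM at 12 h (log2 fold change -0.91, SE 0.11, edgeR adjusted p 3.72e-05). The list is made up of MRTF-SRF targets, so a raised share of the SRF box is in part built in. A box is a match of letters and not a measure of binding, and FHL2 also has a box. It was at 6.78, 6.97 and 6.57 CPM at 0 h and 5.51 and 6.26 CPM at 12 h and the test did not call it (log2 fold change -0.20, SE 0.13, edgeR adjusted p 0.247).

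Among genes with a mean log2 CPM of at least 3 over all libraries, the deepest called falls were those of 2 YAP targets, CCN2 and ANKRD1. Of 22 measured, 12 were called lower (7 agreeing) and 5 higher (3 agreeing), with a median of -0.62. Over all genes 16.8% were called lower and 19.1% higher, so the count of higher members is near that share. Without 12 h replicate 1 the median of the list moved to -0.37, and without replicate 2 to -1.05. ANKRD1, a muscle ankyrin-repeat protein, was at 264, 293 and 279 CPM at 0 h and at 4.77 and 6.49 CPM at 12 h (log2 fold change -5.61, SE 0.36, edgeR adjusted p 2.69e-07). CCN2, a secreted matricellular protein, was at 166, 178 and 178 and then at 2.41 and 4.02 CPM (log2 fold change -5.73, SE 0.47, edgeR adjusted p 1.88e-06). Its 12 h libraries differed by 0.73, so it was not counted as agreeing, though both lay far below 0 h. NUAK2, a kinase that acts on myosin phosphatase, was at 47.1, 56.7 and 52.3 CPM and at 9.71 and 11.7 CPM (log2 fold change -2.28, SE 0.17, edgeR adjusted p 9.97e-07). AMOTL2, an angiomotin that binds YAP, was at 280.5, 299 and 290.2 CPM at 0 h and 70.9 and 69.4 CPM at 12 h (log2 fold change -2.05, SE 0.08, edgeR adjusted p 8.4e-09). LATS2, the kinase that phosphorylates YAP, was at 60.7, 58.2 and 57.6 CPM at 0 h and 18.8 and 22.02 CPM at 12 h (log2 fold change -1.53, SE 0.13, edgeR adjusted p 2.57e-06). DLC1, a RhoGAP, went from 19.6, 27.2 and 14.2 CPM at 0 h to 4.29 and 5.04 CPM at 12 h (log2 fold change -2.12, SE 0.48, edgeR adjusted p 0.00372). Not all of the list moved: AXL, a receptor tyrosine kinase, was at 4.42, 3.75 and 3.69 CPM at 0 h and at 1.79 and 7.44 CPM in the 12 h libraries (log2 fold change 0.24, SE 0.41, edgeR adjusted p 0.69), which differed by 2.01, and it was called higher without replicate 1 (0.91) and lower without replicate 2 (-1.14).

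The letters CATTCC, or GGAATG on the other strand, make up the core of the TEAD motif. They were found in 6 of the 18 YAP targets with a promoter in the table (33.3%), against 11.9% of 27195 promoters and 9.43% of those of genes tested. FOXF2, a member of the 6, fell under the filter and was not tested. The list is made up of YAP targets, so a raised share of the TEAD motif is in part built in. The 3 promoters below are those of the list's most lowered genes with a match, with each match in capitals. CCN2 lies at chr6:131951373-131951622, ANKRD1 at chr10:90921088-90921337 and NUAK2 at chr1:205321746-205321995, all on the minus strand of GRCh38.p14.
CCN2: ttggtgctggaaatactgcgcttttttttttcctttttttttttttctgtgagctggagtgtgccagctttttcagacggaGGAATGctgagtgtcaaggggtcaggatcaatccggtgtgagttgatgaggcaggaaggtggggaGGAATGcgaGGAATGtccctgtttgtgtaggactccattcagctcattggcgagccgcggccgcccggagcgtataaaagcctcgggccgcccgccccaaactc
ANKRD1: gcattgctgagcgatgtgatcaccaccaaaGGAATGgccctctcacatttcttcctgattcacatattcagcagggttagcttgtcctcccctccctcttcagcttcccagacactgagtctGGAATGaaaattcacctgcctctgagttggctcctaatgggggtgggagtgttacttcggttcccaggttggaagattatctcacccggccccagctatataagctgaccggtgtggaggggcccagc
NUAK2: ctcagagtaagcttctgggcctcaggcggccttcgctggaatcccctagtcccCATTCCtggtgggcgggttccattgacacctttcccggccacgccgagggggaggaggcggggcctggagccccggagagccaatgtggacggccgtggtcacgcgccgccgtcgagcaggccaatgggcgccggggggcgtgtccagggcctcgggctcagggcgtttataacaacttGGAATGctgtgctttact
Among the 15 agreeing genes with the largest falls, 2 of the 11 with a promoter in the table held the letters (18.2%), ANKRD1 and NUAK2, and 0 of 9 among the 15 largest rises.

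**Figure D2:**
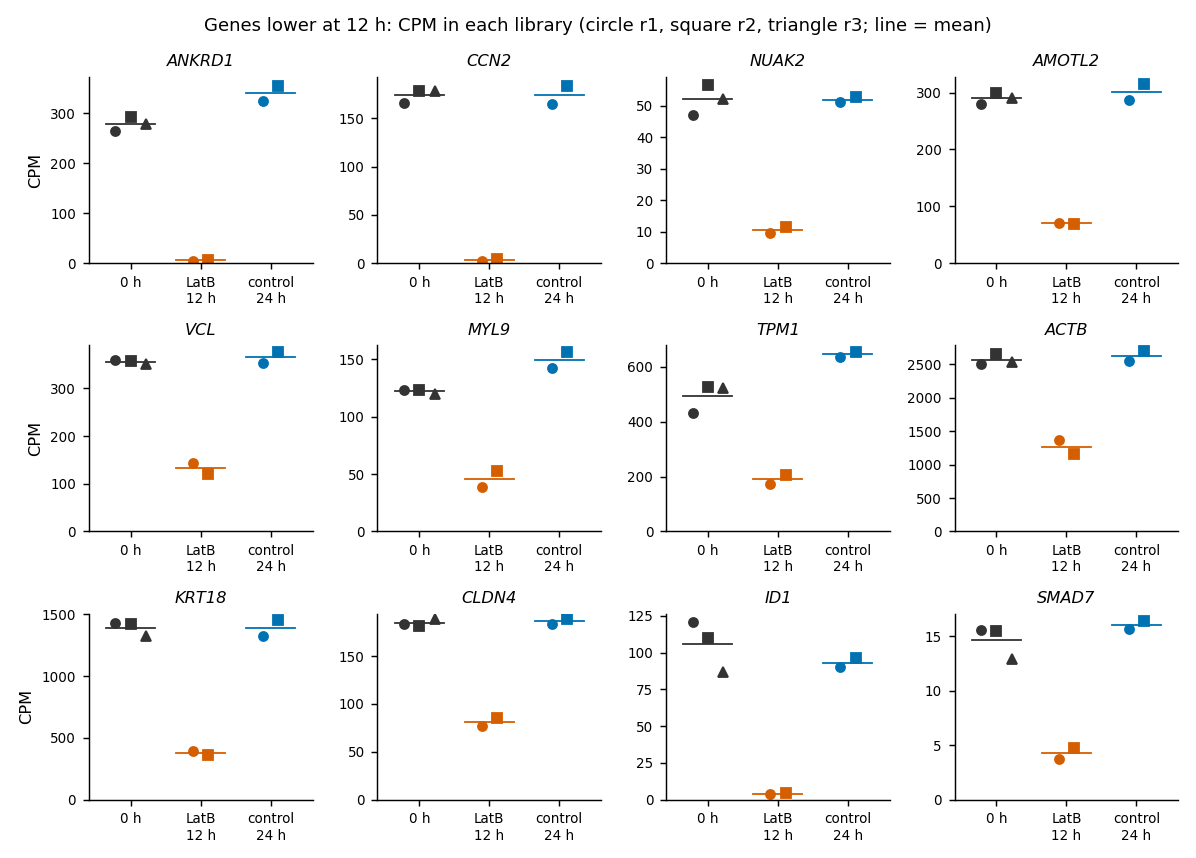
CPM (linear axis from 0) of 12 genes in each library of control 0 h (3), LatB 12 h (2) and control 24 h (2), with a line at the group mean. In all 12 genes both LatB libraries lie below every control library of either time, and control 24 h stays near or above 0 h in 11 of them and slightly below it in ID1.

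Other genes were among the 15 largest falls of agreeing genes at a mean log2 CPM of at least 3. AJAP1, an adherens junction associated protein, was at 97.9, 103 and 99.98 CPM at 0 h and 13.96 and 18.7 CPM at 12 h (log2 fold change -2.62, SE 0.23, edgeR adjusted p 2.58e-06). ANXA3, an annexin, was at 191, 194 and 202 CPM at 0 h and 37.8 and 29.8 CPM at 12 h (log2 fold change -2.54, SE 0.18, edgeR adjusted p 6.23e-07). FLT1, a receptor for VEGF, was at 33.9, 31.3 and 26.6 CPM at 0 h, 15.8 and 18.3 CPM in control 24 h and 5.82 and 5.95 CPM at 12 h, so it was lower in both LatB libraries than in either control (log2 fold change -2.38, SE 0.12, edgeR adjusted p 3.2e-08). LGI2 (-2.25, SE 0.14), KIFC3, a minus-end kinesin (-2.12, SE 0.15), EPS8L1, an actin-binding adaptor (-2.05, SE 0.20), PIM1, a kinase (-2.06, SE 0.10), and CEBPD, a C/EBP factor (-2.06, SE 0.26), were lower too, each agreeing (log2 fold changes in parentheses). OR2I1P, an olfactory receptor pseudogene, was at 15.5, 17.2 and 17.01 CPM at 0 h and 4.07 and 3.18 CPM at 12 h (log2 fold change -2.20, SE 0.30, edgeR adjusted p 0.000107). CNTNAP2 was lower as well (-2.13, SE 0.23), but it has a copy on an alternate sequence that takes reads, so its level is uncertain.

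Keratins of simple epithelia split. KRT18 was at 1431, 1421 and 1323 CPM at 0 h and 396 and 360.3 CPM at 12 h (log2 fold change -1.88, SE 0.08, edgeR adjusted p 1.74e-08). Its partner KRT8 was at 3074, 3054 and 2888 CPM at 0 h and 1096 and 1088 CPM at 12 h (log2 fold change -1.46, SE 0.10, edgeR adjusted p 4.1e-07). KRT19 moved the other way, from 686, 701 and 683 CPM at 0 h to 1063 and 860.1 CPM at 12 h (log2 fold change 0.48, SE 0.09, edgeR adjusted p 0.00116). Of 20 genes of epithelial junctions, 11 were called lower (10 agreeing) and 3 higher, with a median of -0.35. CLDN4, a tight junction claudin, was at 183, 181 and 189 CPM and then 76.6 and 85.5 CPM (log2 fold change -1.19, SE 0.09, edgeR adjusted p 6.71e-07). PKP2 (-0.72, SE 0.07) and DSP (-0.51, SE 0.05) of the desmosome fell less. The main epithelial cadherin was not called: CDH1 stood at 1046, 1054 and 1070.00 CPM at 0 h and 1015 and 968 CPM at 12 h (log2 fold change -0.09, SE 0.04, edgeR adjusted p 0.129). CDH2, neural cadherin, was among the 3 higher genes at 401, 414 and 424 CPM at 0 h and 514 and 802 CPM at 12 h (log2 fold change 0.67, SE 0.16, edgeR adjusted p 0.00546), with replicate 2 well above replicate 1. Without replicate 2 the log2 fold change was 0.31 and the gene was not called.

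Targets of BMP signalling were lower. Of 21 genes of the BMP pathway, 9 were called lower, 8 of them agreeing, and 3 higher, with a median of -0.29. The ID genes encode inhibitors of basic helix-loop-helix factors and are known direct targets of BMP signalling. ID1 was at 121, 110.2 and 87.1 CPM at 0 h and at 3.59 and 4.40 CPM at 12 h (log2 fold change -4.72, SE 0.23, edgeR adjusted p 3.04e-08). ID4 went from 104, 95.8 and 95.6 CPM at 0 h to 33.8 and 30.2 CPM at 12 h (log2 fold change -1.62, SE 0.14, edgeR adjusted p 2.4e-06). ID2 went from 143, 134 and 120.4 CPM at 0 h to 65.7 and 51.3 CPM at 12 h (log2 fold change -1.18, SE 0.15, edgeR adjusted p 6.16e-05). ID3 fell by as clear a margin (221, 205 and 160.2 CPM at 0 h and 22.9 and 33.4 CPM at 12 h, log2 fold change -2.79, SE 0.17, edgeR adjusted p 2.37e-07), with its 12 h libraries just over the limit of agreement at 0.55. Inhibitory members fell as well: SMAD7, which blocks the receptors, was at 15.6, 15.5 and 12.9 CPM at 0 h and 3.76 and 4.74 CPM at 12 h (log2 fold change -1.78, SE 0.16, edgeR adjusted p 4.03e-06). NOG, the secreted antagonist noggin, was at 8.33, 7.77 and 8.65 CPM at 0 h and 2.14 and 2.64 CPM at 12 h (log2 fold change -1.78, SE 0.28, edgeR adjusted p 0.000293). For the ligands the direction differed by gene. BMP2 was lower (212, 213 and 214 CPM at 0 h and 53.8 and 75.6 CPM at 12 h, log2 fold change -1.72, SE 0.22, edgeR adjusted p 7.17e-05). BMP7 was higher (33.6, 32.2 and 33.6 CPM at 0 h and 78.7 and 132 CPM at 12 h, log2 fold change 1.67, SE 0.16, edgeR adjusted p 6.33e-06), and further up in replicate 2. FST, the secreted activin and BMP antagonist follistatin, was higher at 6.34, 5.86 and 5.98 CPM at 0 h and 22.7 and 32.8 CPM at 12 h (log2 fold change 2.20, SE 0.34, edgeR adjusted p 0.000284).

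In the TGF-beta and activin pathway 5 of 16 genes were called higher and 7 lower. The subunits of activin moved apart: INHBB was at 1.36, 0.972 and 1.15 CPM at 0 h and 13.5 and 13.6 CPM at 12 h (log2 fold change 3.55, SE 0.30, edgeR adjusted p 2.21e-06). INHBA was at 17.3, 14.9 and 15.4 CPM at 0 h and 7.57 and 6.32 CPM at 12 h (log2 fold change -1.20, SE 0.12, edgeR adjusted p 1.16e-05). The 12 h libraries gave nearly the same level of INHBB, and control 24 h was at 1.39 and 1.69 CPM. THBS1, which encodes thrombospondin and is another known target of YAP and MRTF, was at 142, 149 and 151 CPM and then at 21.04 and 62.2 CPM (log2 fold change -1.81, SE 0.40, edgeR adjusted p 0.00338), lower in both libraries but by differing amounts (-2.81 without replicate 2). Of 10 NF-kB targets measured, 7 were called lower and 0 higher, with a median of -1.05, and of 8 interferon response genes 4 were lower and 0 higher. CCL2, a chemokine, was at 21.7, 21.2 and 19.6 CPM at 0 h and 3.89 and 2.74 CPM at 12 h (log2 fold change -2.66, SE 0.21, edgeR adjusted p 1.3e-06). NFKBIA, the inhibitor that NF-kB itself switches on, was at 40.2, 43.8 and 39.999 CPM at 0 h and 24.9 and 26.01 CPM at 12 h (log2 fold change -0.70, SE 0.12, edgeR adjusted p 0.000662). ISG15, a ubiquitin-like interferon gene, was at 11.96, 12.5 and 13.1 CPM at 0 h and 4.72 and 6.46 CPM at 12 h (log2 fold change -1.16, SE 0.16, edgeR adjusted p 0.000125). The calls of CXCL2 and IRF1, which are in the counts above, were lost when any of the 5 libraries was left out.

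Endocrine factors rose, with replicate 2 ahead in several. Of 17 endocrine transcription factors, 10 were called higher and 0 lower, 3 of them agreeing, where 19.1% of all genes were called higher, with a median of 1.62. Without replicate 2 of 12 h 7 were called and the median was 1.03, and without replicate 1 13 were called and it was 1.91. Between the controls alone the median was 0.55, with 0 of the 17 called, and against control 24 h 8 were called higher at 12 h, with a median of 0.78. NKX2-2, a homeodomain factor of endocrine cells, was at 0.239, 0.402 and 0.467 CPM at 0 h, 1.15 and 1.38 CPM in control 24 h and 5.25 and 5.17 CPM at 12 h (log2 fold change 3.80, SE 0.44, edgeR adjusted p 2.91e-05). RFX6 was at 8.57, 8.14 and 7.72 CPM at 0 h, 12.98 and 10.9 CPM in control 24 h and 35.8 and 25.4 CPM at 12 h (log2 fold change 1.91, SE 0.20, edgeR adjusted p 1.42e-05). SOX4, an SRY-related factor, rose from 379.8, 385 and 410.2 CPM at 0 h to 698 and 735 CPM at 12 h (log2 fold change 0.87, SE 0.06, edgeR adjusted p 4.44e-07). NEUROG3 itself, which starts the endocrine programme, was at 0.438, 0.603 and 1.36 CPM at 0 h, 2.07 and 2.35 CPM in control 24 h and 8.62 and 13.9 CPM at 12 h (log2 fold change 3.84, SE 0.43, edgeR adjusted p 1.95e-05). Both 12 h libraries were above every control library, and they lay 0.68 apart. INSM1, a zinc finger factor downstream of it, had the same order (11.2 and 18.7 CPM, log2 fold change 3.68, SE 0.40, edgeR adjusted p 1.58e-05). LMX1B, a LIM homeodomain factor, was at 7.57, 11.2 and 10.2 CPM at 0 h and at 24.5 and 56.8 CPM at 12 h (log2 fold change 2.07, SE 0.30, edgeR adjusted p 0.000165), and its change without replicate 2 was 1.34.

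Other endocrine genes did not move as a block. ISL1 (1.12, 0.938 and 1.48 CPM at 0 h and 1.09 and 3.72 CPM at 12 h, log2 fold change 1.05, SE 0.42, edgeR adjusted p 0.0648) did not pass the test. Nor did PAX6 (1.51, 0.704 and 0.976 CPM at 0 h and 1.31 and 1.15 CPM at 12 h, log2 fold change 0.21, SE 0.47, edgeR adjusted p 0.76). NEUROD1 (log2 fold change 2.03) and PAX4 (1.99) were called higher, but were not called without replicate 2 (1.39 and 1.31) or against control 24 h. Of 20 genes of hormone granules and secretion, 11 were called higher (5 agreeing) and 1 lower, with a median of 0.58, and without 12 h replicate 2 only 5 were called higher. Against control 24 h 6 were called higher, with a median of 0.32. SCGN, the calcium sensor secretagogin, was at 11, 8.78 and 8.06 CPM and then at 18.2 and 15.4 CPM (log2 fold change 0.86, SE 0.12, edgeR adjusted p 9.38e-05). PCSK2, a prohormone convertase, was at 0.478, 0.335 and 0.382 CPM at 0 h and 5.95 and 2.64 CPM at 12 h (log2 fold change 3.42, SE 0.37, edgeR adjusted p 1.78e-05), higher in replicate 1. VGF, a granin-like granule peptide, was at 7.35 and 42.7 CPM against 4.98, 3.99 and 5.26 CPM (log2 fold change 2.41, SE 0.51, edgeR adjusted p 0.00251), and lost its call without replicate 2 (log2 fold change 0.63). Without replicate 1 the change of PCSK2 was 2.72. VAMP2, a vesicle SNARE, was the lower gene (53.2, 60.7 and 53.5 CPM at 0 h and 41.4 and 34.6 CPM at 12 h, log2 fold change -0.56, SE 0.09, edgeR adjusted p 0.000245). The letters CAGATG, an E-box of the kind that basic helix-loop-helix factors such as NEUROG3 read, were found in 1 of the 12 endocrine factors with a promoter in the table (8.33%), in 12.2% of all promoters and in 8.35% of those of genes tested.

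Notch ligands changed in opposite directions. DLL4 was at 2.27, 2.11 and 2.38 CPM at 0 h and 18.8 and 16.8 CPM at 12 h (log2 fold change 2.98, SE 0.17, edgeR adjusted p 7.79e-08). DLL3, a ligand that acts within the cell that makes it, was at 1.51, 1.31 and 1.48 CPM at 0 h and 5.56 and 4.26 CPM at 12 h (log2 fold change 1.77, SE 0.35, edgeR adjusted p 0.00174). JAG1, the main jagged ligand, was at 656, 706 and 677 CPM at 0 h and 343 and 377 CPM at 12 h (log2 fold change -0.92, SE 0.12, edgeR adjusted p 9.39e-05). Of the receptors, NOTCH1 was higher (0.50, SE 0.08) and NOTCH2 lower (-0.75, SE 0.07), both agreeing. Over the pathway 7 of 20 genes were called higher and 5 lower, where 19.1% and 16.8% of all genes were. The target HES1, which represses NEUROG3, was at 112, 115 and 109 CPM at 0 h and at 125 and 78.3 CPM at 12 h, a change that did not pass (log2 fold change -0.14, SE 0.13, edgeR adjusted p 0.421). HES4 was lower in both libraries (95.7, 99.7 and 102 CPM at 0 h and 46.4 and 31.2 CPM at 12 h, log2 fold change -1.36, SE 0.13, edgeR adjusted p 5.46e-06). HES6, which counters HES1, was higher (15.5, 14.1 and 17.7 CPM at 0 h and 27.4 and 23.4 CPM at 12 h, log2 fold change 0.69, SE 0.15, edgeR adjusted p 0.00372).

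Progenitor factors changed in both directions. Of 19 measured, 6 were called higher and 5 lower, with a median of -0.11, where 19.1% and 16.8% of all genes were. FOXA3, a forkhead factor of endoderm, was at 25.5, 25.1 and 24.3 CPM at 0 h and 85.04 and 63.5 CPM at 12 h (log2 fold change 1.57, SE 0.11, edgeR adjusted p 4.1e-07). ONECUT2 (313, 299.9 and 313 CPM at 0 h and 159.8 and 195 CPM at 12 h, log2 fold change -0.80, SE 0.12, edgeR adjusted p 0.000185) and GLIS3 (241, 244 and 249 CPM at 0 h and 152 and 131 CPM at 12 h, log2 fold change -0.79, SE 0.08, edgeR adjusted p 1.11e-05) were the largest falls. PDX1 (log2 fold change -0.26, SE 0.11, edgeR adjusted p 0.0721) and NKX6-1 (log2 fold change -0.12, SE 0.11, edgeR adjusted p 0.429) were not called. SOX9 was called lower by a small amount (log2 fold change -0.26, edgeR adjusted p 0.0346). Its call was lost with only the groups compared in the fit and when any 0 h library was left out. Without 12 h replicate 2 the log2 fold change of SOX9 was -0.12. SOX17, a factor of early endoderm and of the biliary bud, was at 7.81, 5.23 and 6.07 CPM at 0 h and 16.97 and 23.2 CPM at 12 h (log2 fold change 1.66, SE 0.16, edgeR adjusted p 6.88e-06).

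Markers of liver, the neighbouring endoderm, were also higher. Of 15 measured, 10 were called higher and 0 lower, 2 of them agreeing, with a median of 1.01 against 0 h and 0.57 against control 24 h, where 5 were called. AMBP, a plasma protein precursor, was at 115, 105 and 112 CPM at 0 h and 175 and 185 CPM at 12 h (log2 fold change 0.70, SE 0.06, edgeR adjusted p 2.53e-06). FGG, a fibrinogen chain, was at 26.2, 22.4 and 26.1 CPM and 46.5 and 60.6 CPM (log2 fold change 1.11, SE 0.17, edgeR adjusted p 0.000268). Without 12 h replicate 2 the count was 6 and the median 0.48. TTR, transthyretin, stood just above 0 h in replicate 1 and far above it in replicate 2 (194, 160.3 and 172 CPM at 0 h and 199 and 586 CPM at 12 h). The defining marker ALB was near 0 in all of these libraries (0.757, 0.469 and 0.170 CPM at 0 h and 0.481 and 2.50 CPM at 12 h). The summed level of the 15 markers ran from 1651 to 1914 CPM at 0 h and was 2789 and 3641 CPM at 12 h. The part of liver-type cells in the other results was not tested.

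**Figure D3:**
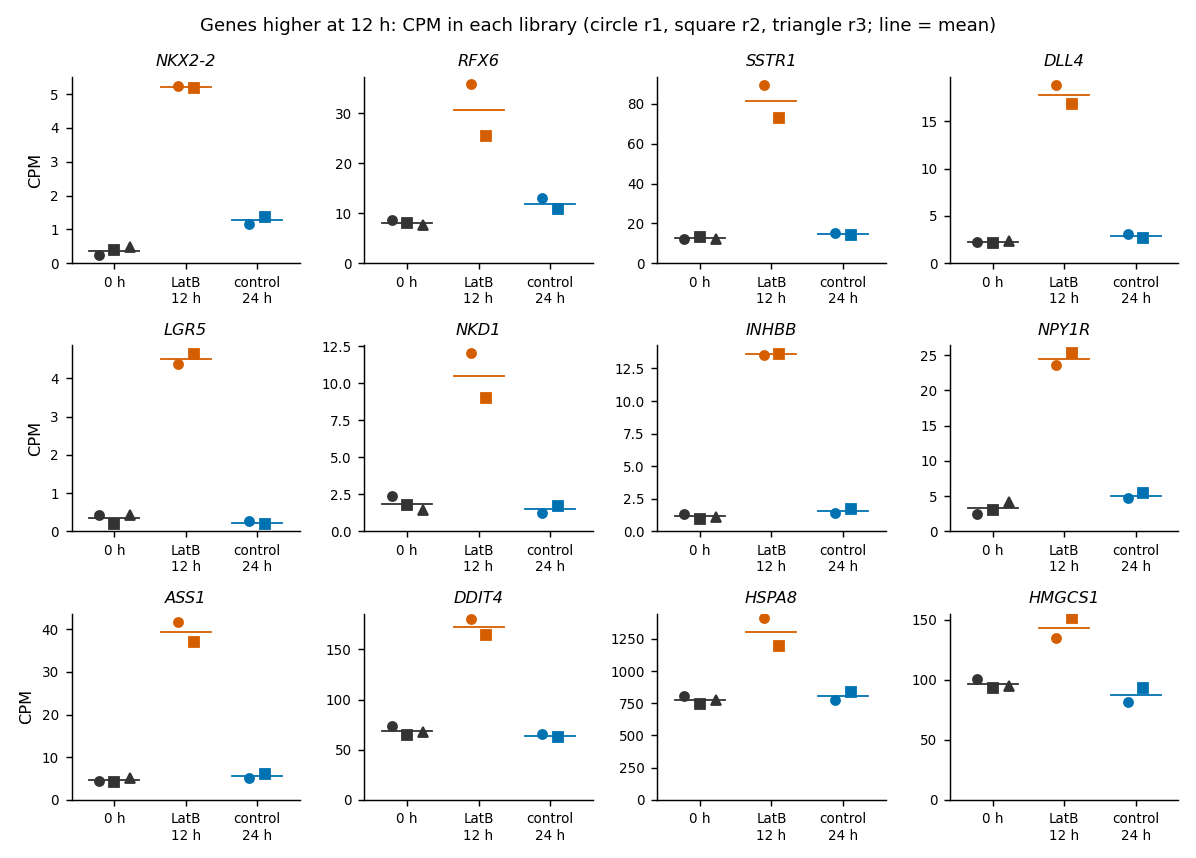
CPM (linear axis from 0) of 12 genes in each library of control 0 h (3), LatB 12 h (2) and control 24 h (2), with a line at the group mean. Both LatB libraries lie above every control library in all 12 genes, and NKX2-2, RFX6 and NPY1R are also somewhat higher in control 24 h than at 0 h.

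In the WNT pathway LGR5 and NKD1 were raised in both libraries. Of 18 genes of the WNT pathway, 7 were called higher (5 agreeing) and 2 lower, with a median of 0.21, and 5 were called higher without 12 h replicate 1. LGR5, the R-spondin receptor and a known WNT target, was at 0.438, 0.201 and 0.424 CPM at 0 h, 0.271 and 0.188 CPM in control 24 h and 4.37 and 4.63 CPM at 12 h (log2 fold change 3.67, SE 0.30, edgeR adjusted p 1.51e-06). NKD1, an inhibitor of dishevelled, was at 2.39, 1.78 and 1.48 CPM at 0 h, 1.22 and 1.75 CPM in control 24 h and 12.03 and 9.03 CPM at 12 h (log2 fold change 2.48, SE 0.23, edgeR adjusted p 4.37e-06). With limma on log2(TPM + 1) NKD1 was not called (log2 fold change 0.52, limma adjusted p 0.208), while LGR5 was. In both genes the control groups lay together and both LatB libraries stood well above them. AXIN2, a common readout of the pathway, was at 29.5 and 16.03 CPM in replicates 1 and 2 against 18.4, 18.3 and 16.2 CPM at 0 h (log2 fold change 0.36, SE 0.18, edgeR adjusted p 0.132), higher in replicate 1 only. WNT5A, a ligand, rested on replicate 2 (5.91 and 24.8 CPM against 7.25, 5.56 and 6.07 CPM, log2 fold change 1.29, SE 0.38, edgeR adjusted p 0.0169), and leaving that library out gave a log2 fold change of -0.091.

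The 15 largest rises of agreeing genes at a mean log2 CPM of at least 3 included enzymes, transporters, receptors and transcription factors. ASS1, the argininosuccinate synthase of the urea cycle, was at 4.30, 4.26 and 5.01 CPM at 0 h and 41.8 and 37.04 CPM at 12 h (log2 fold change 3.13, SE 0.30, edgeR adjusted p 5.77e-06). RIMKLA, which makes N-acetylaspartylglutamate, was at 5.22, 4.96 and 6.24 CPM at 0 h and 43.4 and 37.9 CPM at 12 h (log2 fold change 2.90, SE 0.12, edgeR adjusted p 1.36e-08). The amino acid transporter SLC38A3 was at 6.78, 8.44 and 8.36 CPM at 0 h and 29.1 and 32.8 CPM at 12 h (log2 fold change 1.98, SE 0.13, edgeR adjusted p 2.69e-07). Both 12 h libraries stood several times above all 3 libraries of 0 h in each of these genes. Peptide receptors were among them: NPY1R, for neuropeptide Y, was at 2.55, 3.08 and 4.16 CPM and then 23.6 and 25.3 CPM (log2 fold change 2.91, SE 0.16, edgeR adjusted p 6.67e-08). SSTR1, for somatostatin, was at 11.997, 13.2 and 12.3 CPM at 0 h and 89.6 and 73.1 CPM at 12 h (log2 fold change 2.70, SE 0.12, edgeR adjusted p 1.74e-08). NCAM1, a neural cell adhesion molecule that islet cells also carry, was at 30.6, 33.6 and 45.9 CPM at 0 h, 50.6 and 51.9 CPM in control 24 h and 145 and 183 CPM at 12 h (log2 fold change 2.16, SE 0.16, edgeR adjusted p 8.55e-07). CNTFR, a cytokine receptor (1.81, SE 0.14), RFLNA, a refilin that binds filamin (2.06, SE 0.13), ITPR1, the calcium channel of the endoplasmic reticulum (1.67, SE 0.09), TENM3, a teneurin (1.71, SE 0.14), SMOC2, a matricellular protein (1.73, SE 0.11), and GC, the vitamin D binding protein (1.81, SE 0.20), were among the others (log2 fold changes in parentheses), and so were RGS4, RFX6 and SOX17.

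The study named 9 genes that change both with LatB and on laminin-411, a basement membrane protein, partly from these libraries, so their direction here is not independent evidence. All 9 were called higher at 12 h, where 19.1% of all genes were, 6 of them agreeing, with a median of 1.57, and all 9 were called without either 12 h library. RGS4, a regulator of G protein signalling, was at 9.05, 8.78 and 10.1 CPM at 0 h and 29.9 and 41.1 CPM at 12 h (log2 fold change 1.94, SE 0.15, edgeR adjusted p 1.44e-06). DDIT4, which brakes mTORC1, was at 73.7, 64.1 and 68.1 CPM at 0 h and 179.9 and 164 CPM at 12 h (log2 fold change 1.33, SE 0.11, edgeR adjusted p 1.95e-06). FOXP1, a forkhead factor, was at 89.6, 89.7 and 92.002 CPM at 0 h and 146 and 115 CPM at 12 h (log2 fold change 0.53, SE 0.08, edgeR adjusted p 0.00016). MAN1A1, a mannosidase of N-glycan trimming, was at 77.04, 73.1 and 88.99 CPM at 0 h and 112 and 149 CPM at 12 h (log2 fold change 0.71, SE 0.11, edgeR adjusted p 0.000294). MET, the receptor for hepatocyte growth factor, was higher in both libraries but more so in replicate 1 (35.4, 29.5 and 32.1 CPM at 0 h and 95.9 and 54.9 CPM at 12 h, log2 fold change 1.22, SE 0.17, edgeR adjusted p 0.000107). Of the integrin chains that carry laminin binding, ITGA6 was at 409.8 and 416 CPM in both 12 h libraries against 216, 197 and 210.3 CPM at 0 h (log2 fold change 0.99, edgeR adjusted p 2.15e-08). ITGA7 rose from 9.68, 9.95 and 10.4 CPM at 0 h to 18.1 and 23.3 CPM at 12 h (log2 fold change 1.05, SE 0.13, edgeR adjusted p 4.25e-05). The chains that the study lists as binding fibronectin, ITGAV (log2 fold change -0.23, SE 0.09, edgeR adjusted p 0.0684) and ITGA5 (log2 fold change 0.14, SE 0.12, edgeR adjusted p 0.4), were not called.

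Many protein folding and sterol genes rose in both libraries. Of 11 heat shock genes, 8 were called higher, all agreeing, and 1 lower, with a median of 0.31, and without 12 h replicate 1 the count of higher genes was 5. HSPA8, the constitutive HSP70 chaperone, was at 804, 742 and 776 CPM at 0 h and 1413 and 1198 CPM at 12 h (log2 fold change 0.75, SE 0.08, edgeR adjusted p 9.22e-06). HSPH1, its exchange factor, was at 130.01, 121 and 131 CPM at 0 h and 194 and 193 CPM at 12 h (log2 fold change 0.60, SE 0.06, edgeR adjusted p 6.4e-06). HSPA1A was higher too (1.02, SE 0.11), but shares reads with a near-identical copy and is uncertain. Of 25 genes of cholesterol and fatty acid synthesis, 15 were called higher, all agreeing, and 1 lower, with a median of 0.33, and without 12 h replicate 2 10 were called higher. HMGCS1, which makes the precursor of mevalonate, was at 101, 93.4 and 94.6 CPM at 0 h and 135 and 152 CPM at 12 h (log2 fold change 0.57, SE 0.10, edgeR adjusted p 0.000618). IDI1, an isomerase of the same route, was at 53.2, 51.9 and 55.1 CPM at 0 h and 69.3 and 87.1 CPM at 12 h (log2 fold change 0.55, SE 0.12, edgeR adjusted p 0.00284).

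Stress response and lysosome genes that were called were mostly higher. Of 24 genes of the integrated stress response, 12 were called higher and 2 lower, with a median of 0.35, and without replicate 2 of 12 h the count of higher genes fell to 7. The amino acid transporter chains SLC3A2 and SLC7A5, which pair in the membrane, moved apart. SLC3A2 rose (81.2, 77.5 and 77.4 CPM at 0 h and 104 and 142 CPM at 12 h, log2 fold change 0.64, SE 0.09, edgeR adjusted p 0.000154). SLC7A5 fell (96.4, 93.96 and 94.3 CPM at 0 h and 55.8 and 60.7 CPM at 12 h, log2 fold change -0.70, SE 0.06, edgeR adjusted p 2.21e-06). Lysosome and autophagy genes were called higher in 12 of 24, among them SQSTM1, an autophagy receptor, at 102, 104 and 96.5 CPM at 0 h and 213 and 189 CPM at 12 h (log2 fold change 0.998, SE 0.08, edgeR adjusted p 1.45e-06), and ATP6V0D1, a subunit of the proton pump (0.65, SE 0.07). WIPI1, which binds lipid at the forming autophagosome, was the lower member (72.3, 71.04 and 70.5 CPM at 0 h and 43.6 and 46.4 CPM at 12 h, log2 fold change -0.66, SE 0.06, edgeR adjusted p 4.03e-06). Of 16 genes of FOXO and insulin signalling, 5 were called higher and 3 lower, where 19.1% and 16.8% of all genes were, with a median of 0.05. IRS1, the insulin receptor substrate, was at 142, 138 and 135 CPM at 0 h and 79.2 and 62.5 CPM at 12 h (log2 fold change -0.97, SE 0.10, edgeR adjusted p 1.6e-05). PIK3R1, the regulatory chain of PI3 kinase, was at 131, 125 and 142 CPM at 0 h and 314 and 278 CPM at 12 h (log2 fold change 1.16, SE 0.08, edgeR adjusted p 6.6e-07).

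Cell cycle genes depended on the control. Of 30 mitosis genes, 3 were called higher at 12 h against 0 h and 1 lower, with a median of 0.05 that fell to -0.17 without 12 h replicate 2, but 26 were called higher against control 24 h, where 18.4% of all genes were, with a median of 0.76. The control 24 h libraries were lower than 0 h, with a median of -0.71, and 5 of the 30 were called between the controls. AURKA, a spindle kinase, was at 25.4, 23.3 and 24.1 CPM at 0 h, 14.6 and 17.3 CPM in control 24 h and 39.5 and 36.7 CPM at 12 h (log2 fold change 0.65, SE 0.12, edgeR adjusted p 0.000795). At 12 h, CCND1 lay below and CDKN1B above the libraries of both controls. CCND1, cyclin D1, fell from 2806, 2793 and 2685 CPM at 0 h to 1474 and 1656 CPM at 12 h (log2 fold change -0.82, SE 0.08, edgeR adjusted p 4.34e-06) and stood at 2302 and 2398 CPM in control 24 h. CDKN1B, the inhibitor p27, was at 26.98, 25.1 and 25.8 CPM at 0 h and 44.8 and 38.998 CPM at 12 h (log2 fold change 0.69, SE 0.11, edgeR adjusted p 0.000293), with control 24 h at 22.1 and 22.4 CPM.

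The 12 h libraries differed in whole programmes. The plot of list differences sets the median of replicate 2 minus replicate 1 over the genes of each list beside the same in 13 other pairs of libraries. Of 39 lists with at least 3 genes at a mean log2 CPM of 3, 20 lay outside the largest absolute median of those pairs, 10 higher in replicate 2 and 10 higher in replicate 1. With a pair against 13 pairs this is a description, and no test was made of 1 library against 1.

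**Figure D4:**
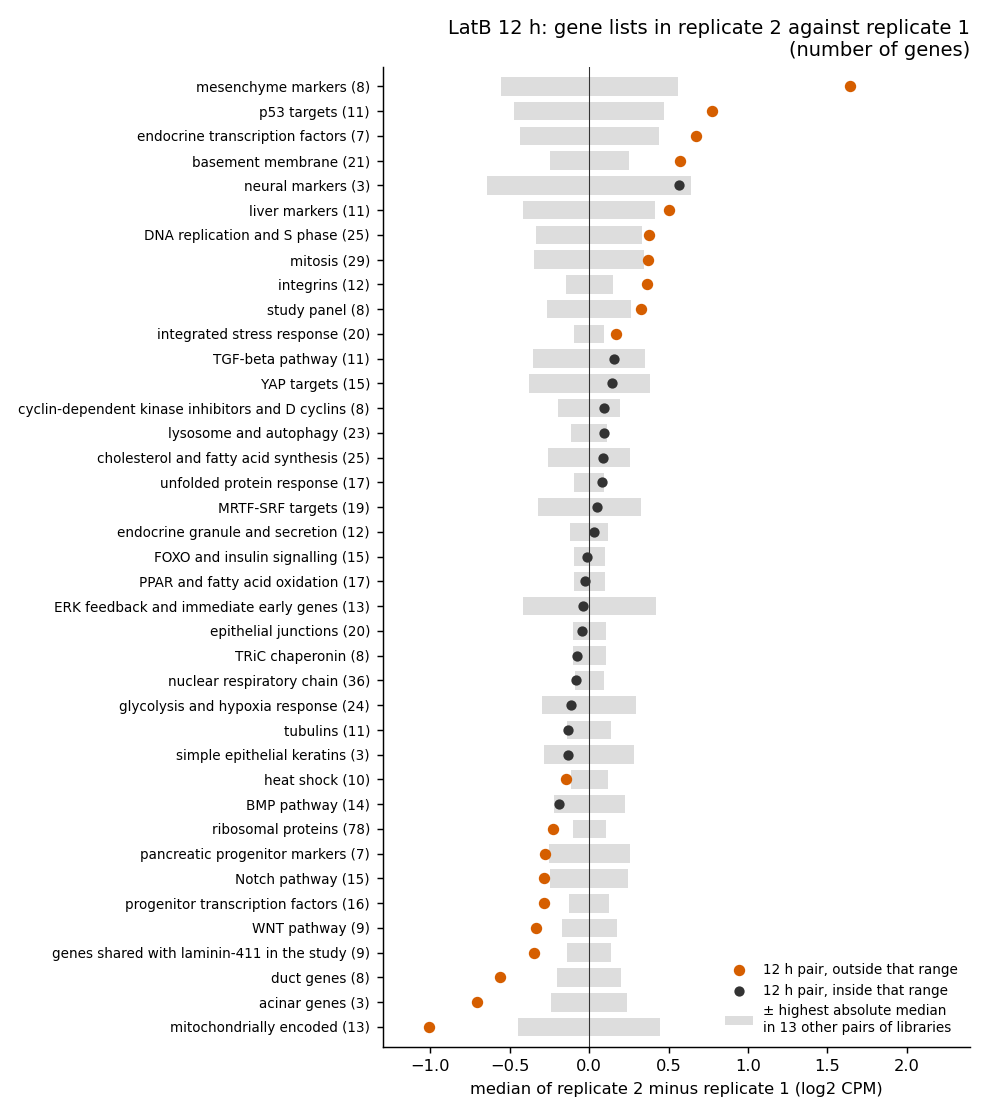
Points give the median difference between 12 h replicate 2 and replicate 1 over the genes of a list (log2 CPM), and grey bars the largest absolute median of that list in the 13 other pairs of libraries of a group. Mesenchyme markers (1.64), p53 targets (0.77), endocrine factors (0.67) and basement membrane genes (0.57) lie furthest to the right, mitochondrially encoded genes (-1.01), acinar genes (-0.71) and duct genes (-0.56) to the left, and MRTF-SRF targets (0.05) and YAP targets (0.14) inside the bars.

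Mesenchyme markers made up the largest difference. All 8 that passed the level filter were higher in replicate 2 by over 0.5, with a median of 1.64 against at most 0.56 in other pairs. The share of all genes over 0.5 apart is not given, so this count and those of the lists below have no background. Differences over all genes at that filter had a standard deviation of 0.41 in the 12 h pair and 0.13 to 0.25 in other pairs. Their median in the 12 h pair was -0.04, so the medians of lists can be set beside it. The summed level of the 12 markers was 271 CPM in replicate 1 and 1236 CPM in replicate 2, while control 0 h ran from 226 to 336 CPM, and 0 of the 12 were at 0 in a 12 h library. COL3A1, a fibrillar collagen, was at 105, 52.5 and 65.2 CPM at 0 h and at 101 and 684 CPM at 12 h. LUM, the proteoglycan lumican, was at 12.2, 7.47 and 8.61 CPM at 0 h and 14.8 and 75.5 CPM at 12 h. DCN, decorin, was at 0.797, 0.637 and 1.31 CPM at 0 h and 0.787 and 8.52 CPM at 12 h. In these genes replicate 1 lay within or close to the range of 0 h and replicate 2 stood far above it. Of the 12 markers, 4 were called higher at 12 h by edgeR, 10 without replicate 1 and 0 without replicate 2. COL3A1 without replicate 2 had a log2 fold change of 0.45.

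Matrix and adhesion genes followed the same library. TNC, tenascin C, was at 3.95, 3.79 and 4.37 CPM at 0 h and 3.41 and 31.2 CPM at 12 h, FBN2, fibrillin 2, at 31.5, 24.9 and 31.7 CPM at 0 h and 18.8 and 137 CPM at 12 h. NID2, a nidogen of basement membranes, was at 26.3, 22.6 and 23.6 CPM at 0 h and 21.9 and 115 CPM at 12 h. The peptidases MME (4.64 and 40.8 CPM at 12 h) and ENPEP (6.82 and 57.97 CPM) and the secreted proteins SPP1, osteopontin (5.29 and 69.8 CPM), and GDF6, a BMP-related ligand (2.93 and 23.2 CPM), were each several times higher in replicate 2. In MME and GDF6 replicate 1 lay within the range of 0 h, in SPP1 just below it and in ENPEP above it. SYT4, a synaptotagmin, was at 2.97 and 26.4 CPM against 1.04, 0.737 and 1.06 CPM at 0 h, above 0 h in both libraries (log2 fold change 3.97, SE 0.61, edgeR adjusted p 0.000267), with a change of 1.66 without replicate 2. Of 25 basement membrane genes, 3 were called higher and 5 lower, near the shares of all genes, and the count of lower genes was 3 without 12 h replicate 1 and 10 without replicate 2. Of 21 that passed the level filter, 11 were higher in replicate 2 by over 0.5 and 1 in replicate 1, a count without a background share of all genes. Integrin genes had a median difference of 0.36, with ITGA9 at 8.05 and 22.4 CPM (log2 fold change 1.66, SE 0.29, edgeR adjusted p 0.000611, and 0.74 without replicate 2). Of 18 measured, 4 were called higher and 4 lower at 12 h against 0 h, with a median of 0.04. Both counts are near the shares of all genes (19.1% and 16.8%). Those called higher came to 9 without replicate 1 and to 3 without replicate 2. Of 4 endothelial markers tested, only 1 passed the level filter, KDR, and it was higher in the same library. KDR, a VEGF receptor, was at 6.46, 5.13 and 5.85 CPM at 0 h and 9.01 and 37.002 CPM at 12 h. CDH5, vascular cadherin, was at 0 and 0.981 CPM (a count of 0 in replicate 1 allows up to 0.127 CPM, for counting error only). The summed level of the list was 9.76 and 41.4 CPM against 6.83 to 8.01 CPM at 0 h, and KDR alone made up most of it. The part of mesenchymal or endothelial cells in these differences was not tested.

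Of the lists with a higher median in replicate 2, the p53 targets came next. Of 12 genes, 7 were called higher and 0 lower (3 agreeing), with a median of 0.76. Without 12 h replicate 1 11 were called higher, and without replicate 2 2 were and the median was 0.08. CDKN1A, the cell cycle inhibitor p21, was at 79.6, 75.8 and 70.8 CPM at 0 h and at 74.4 and 230.3 CPM at 12 h. GDF15, a stress cytokine, was at 58.1, 53.98 and 61.4 CPM at 0 h and 72.3 and 228 CPM at 12 h. MDM2, which degrades p53, was at 104, 94.7 and 101 CPM at 0 h and 135 and 273 CPM at 12 h (log2 fold change 1.03, SE 0.22, edgeR adjusted p 0.00287), and its change without replicate 2 was 0.43. Replicate 2 was high in all of them, and in CDKN1A replicate 1 lay within the range of 0 h. The libraries agreed on 3 members, one of them TP53I3 (16.8, 17.8 and 17.5 CPM at 0 h and 37.2 and 46.6 CPM at 12 h, log2 fold change 1.27, SE 0.11, edgeR adjusted p 1.95e-06). Another was SESN1, a sestrin (35.03, 31.9 and 32.1 CPM at 0 h and 48.1 and 60.8 CPM at 12 h, log2 fold change 0.72, SE 0.12, edgeR adjusted p 0.000353). The last was TNFRSF10B, a death receptor (0.35, SE 0.11), whose call was lost without 12 h replicate 2 (0.17) and without 0 h replicate 2 or 3. CDKN1A (-0.021) and GDF15 (0.32) and MDM2 were not called without 12 h replicate 2 either. Of 11 that passed the level filter, 8 were higher in replicate 2 by over 0.5.

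Mitochondrial transcripts went the other way. All 13 mitochondrially encoded genes were higher in replicate 1 by over 0.5, with a median of -1.01 against at most 0.45 in other pairs. They took 4.25% of the gene reads of replicate 1 and 2.36% of those of replicate 2, where the other 14 libraries ran from 3.22% to 5.39%. Of the 13 genes, 2 were called lower at 12 h, near the share of all genes (16.8%). The median log2 fold change of the 13 was -1.10 without replicate 1 and -0.06 without replicate 2. MT-ATP6, a subunit of ATP synthase, was at 2666, 3695 and 3279 CPM at 0 h and 3155 and 1472 CPM at 12 h. The 36 respiratory chain genes of the nucleus did not share the difference (median -0.08, other pairs up to 0.09). Cytosolic ribosomal protein genes were lower in replicate 2 by a small and even amount (median -0.23 over 78 genes, other pairs up to 0.10). Of these 78, 25 were called higher at 12 h, where 19.1% of all genes were. The median log2 fold change of the 78 was -0.002 without replicate 1 and 0.25 without replicate 2. RPS26 rose in both libraries (84.1, 83.9 and 85.003 CPM at 0 h and 134 and 116 CPM at 12 h, log2 fold change 0.57, SE 0.06, edgeR adjusted p 1.9e-05).

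Several duct and progenitor genes were lower in replicate 2. Of the 8 duct genes that passed the level filter, 5 were higher in replicate 1 by over 0.5 and 1, SPP1, was higher in replicate 2, with a median of -0.56. Of 16 progenitor factors 1 was higher in replicate 1 by as much and 0 in replicate 2, with a median of -0.29 against at most 0.13 in other pairs. Acinar genes had a median of -0.71, but over 3 genes only, 2 higher in replicate 1 and 1 in replicate 2. CFTR, the chloride channel of ducts, was at 1709.9, 1642 and 1673 CPM at 0 h and at 1715 and 539 CPM at 12 h, so replicate 1 stayed at the level of 0 h and replicate 2 lay far below it. GP2, a surface marker of PP cells, was at 1757, 1581 and 1589.8 CPM at 0 h and 1552 and 951 CPM at 12 h. MNX1, a homeobox factor, was at 111, 111 and 113 CPM at 0 h and 215 and 121 CPM at 12 h. SLC4A4, the bicarbonate cotransporter, agreed in both libraries (1883, 1796 and 1908 CPM at 0 h and 1044 and 984 CPM at 12 h, log2 fold change -0.88, SE 0.08, edgeR adjusted p 2.48e-06). SPOCK2, a proteoglycan, was at 297 and 58.9 CPM against 67.6, 62.1 and 70.5 CPM at 0 h, and without replicate 1 its log2 fold change was -0.18. The thiamine transporter SLC19A3 (114 and 22.02 CPM against 102, 78.2 and 80.2 CPM) and SERPINA3, an acute phase protease inhibitor (115 and 25.9 CPM against 201, 152 and 150.4 CPM), were lower than 0 h in replicate 2. GCH1, the first enzyme of tetrahydrobiopterin synthesis, was at 41.8 and 1.66 CPM in the 12 h libraries, but the control 24 h libraries also lay far apart at 1.36 and 16.8 CPM. Summed over the 8 PP markers the level was 2592 CPM in replicate 1 and 1823 CPM in replicate 2, against 2639 to 2832 CPM at 0 h. GP2 alone made up most of this sum and most of the gap between the 12 h libraries.

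Tested directly against its neighbours in time, 12 h differed from 6 h in 29.0% of genes, 13.9% higher and 15.1% lower, and 24 h differed from 12 h in 11.7%, 5.96% higher and 5.72% lower. Without 12 h replicate 2 the count against 6 h fell from 4837 to 2861, and with only the 24 h and 12 h libraries in the fit edgeR called 0 genes between them (2542 at an unadjusted p under 0.05), while DESeq2 over all groups called 2257. Over 6323 genes called between 6 h and 24 h, a contrast without any 12 h library, replicate 1 lay at 0.515 and replicate 2 at 0.714 of the way from the 6 h mean to the 24 h mean. The controls, which are off that line, projected at 0.407 to 0.450, so the number places the 12 h libraries only among LatB libraries.

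**Figure D5:**
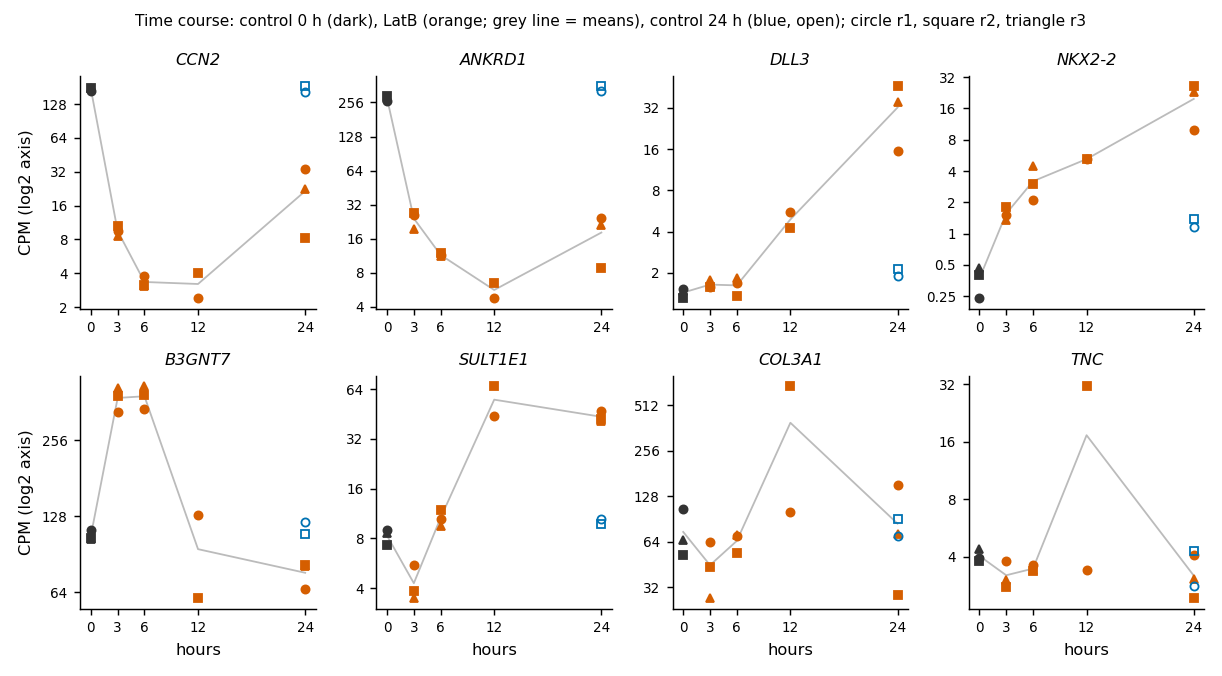
CPM (log2 axis) of 8 genes in each library against hours, with LatB libraries in orange, control 0 h dark and control 24 h as open blue symbols, and a grey line through the means of 0 h and LatB. CCN2 and ANKRD1 are lowest at 6 to 12 h and partly back at 24 h, DLL3 and NKX2-2 climb further by 24 h, and COL3A1 and TNC are high in 12 h replicate 2.

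Several cytoskeletal and YAP genes were higher again at 24 h than at 12 h. CCN2 was at 33.8, 8.32 and 22.6 CPM at 24 h against 2.41 and 4.02 CPM at 12 h (2.71, SE 0.46, edgeR adjusted p 0.00419). ANKRD1 was at 24.5, 8.84 and 21.1 CPM (1.67, SE 0.34, edgeR adjusted p 0.00863) and AMOTL2 at 173, 152 and 182 CPM (1.27, SE 0.07, edgeR adjusted p 2.71e-06). ACTB was at 2448, 2089 and 2502 CPM at 24 h (0.89, SE 0.09, edgeR adjusted p 0.000226), so its 24 h libraries approached the 0 h level while those of 12 h did not. The 22 YAP targets measured had a median of -0.02 at 24 h against 12 h, with 7 called higher and 1 lower, so the list as a whole did not rise. Of the 22 MRTF-SRF targets 11 were called higher and 2 lower at 24 h against 12 h, with a median of 0.36. Over all genes 5.96% were called higher and 5.72% lower. KRT18 followed the same course (0.77 at 24 h against 12 h, after -0.83 at 12 h against 6 h). ID1 did not: it was at 3.96, 3.25 and 3.32 CPM at 6 h and 5.05, 2.73 and 4.09 CPM at 24 h, with no call against 12 h in either case (0.19 and -0.03).

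NEUROG3 and DLL3 kept rising, while other endocrine genes did so in part. Of the 17 endocrine factors 5 were called higher and 1 lower at 12 h against 6 h, and 5 higher and 0 lower at 24 h against 12 h. Of the 20 granule genes 6 were called higher and 2 lower against 6 h, and 3 higher and 2 lower at 24 h against 12 h. NEUROG3 was higher at 12 h than at 6 h (1.64, SE 0.36, edgeR adjusted p 0.00478) and higher at 24 h than at 12 h, at 25.6, 59.8 and 49.5 CPM (1.99, SE 0.36, edgeR adjusted p 0.00544). DLL3 was at 1.67, 1.36 and 1.82 CPM at 6 h, 5.56 and 4.26 CPM at 12 h and 15.5, 45.98 and 35.3 CPM at 24 h (2.72, SE 0.34, edgeR adjusted p 0.000911). DLL4 and LGR5 had reached their level before: DLL4 changed by -0.10 from 6 h and by -0.09 to 24 h, and LGR5 by 0.45 and -0.46, with no call. SULT1E1, an oestrogen sulphotransferase, was at 10.5, 11.9 and 9.49 CPM at 6 h and 44.1 and 66.6 CPM at 12 h (2.38, SE 0.18, edgeR adjusted p 3.88e-06). Genes that were high at 6 h came down by 12 h: B3GNT7, a glycosyltransferase, went from 341, 386 and 417 CPM at 6 h to 129 and 60.8 CPM (-2.01, SE 0.23, edgeR adjusted p 6.71e-05). FST went from 68.4, 90.5 and 113 CPM at 6 h to 22.7 and 32.8 CPM at 12 h (-1.70, SE 0.32, edgeR adjusted p 0.00189). Of the 9 genes shared with laminin-411, 8 were called lower at 12 h than at 6 h and 0 higher. Over all genes 15.1% were called lower and 13.9% higher. The study picked these 9 for being raised at 6 h, partly in these libraries, so a fall after 6 h is in part built in.

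The largest changes between 6 h and 12 h were shared unevenly by the 12 h libraries. Of the 5 largest called rises at a mean log2 CPM of at least 3, those of COL3A1 (2.60, SE 0.68, edgeR adjusted p 0.0123), LUM and COL5A2, another fibrillar collagen, were carried by replicate 2. TIMP3, an inhibitor of matrix proteases, was at 6.62, 7.34 and 5.72 CPM at 6 h and 17.8 and 36.9 CPM at 12 h (2.06, SE 0.23, edgeR adjusted p 4.7e-05), higher in both. Of the 5 largest falls besides B3GNT7, SLC26A3, an anion exchanger of gut epithelium, went from 176, 201 and 224 CPM to 69.03 and 21.7 CPM (-2.15, SE 0.36, edgeR adjusted p 0.00075). TRPC4, a cation channel, went from 38.5, 44.04 and 40.7 CPM to 15.6 and 4.70 CPM (-2.05, SE 0.32, edgeR adjusted p 0.000479). RASD1, a Ras-related protein, went from 22.6, 22.8 and 27.8 CPM to 7.04 and 5.07 CPM (-2.02, SE 0.29, edgeR adjusted p 0.000266). CP, ceruloplasmin, differed widely between libraries of most groups (52.7, 63.1 and 76.7 CPM at 6 h and 18.1 and 3.59 CPM at 12 h, -2.60, SE 0.84, edgeR adjusted p 0.0341). Between 12 h and 24 h the other large rises began with CCN1, a matricellular relative of CCN2, which went from 4.68 and 8.56 CPM to 38.6, 11.1 and 27.004 CPM (1.92, SE 0.39, edgeR adjusted p 0.00886). They included SAMD4A, an RNA-binding repressor of translation (1.52, SE 0.29, edgeR adjusted p 0.00673), and OR2I1P (1.66, SE 0.30, edgeR adjusted p 0.00537). The largest falls were led by EDN3, an endothelin, from 16.5 and 9.98 CPM to 1.81, 2.70 and 3.39 CPM (-2.32, SE 0.24, edgeR adjusted p 0.000244). SEMA5B, a semaphorin, went from 8.14 and 17.01 CPM to 4.06, 2.27 and 2.39 CPM (-2.12, SE 0.31, edgeR adjusted p 0.00191). It was followed by the BMP and WNT inhibitor APCDD1 (-2.07, SE 0.32, edgeR adjusted p 0.00244), the orphan receptor ESRRG (-1.96, SE 0.38, edgeR adjusted p 0.00754) and CRB2, of the apical crumbs complex (-1.88, SE 0.30, edgeR adjusted p 0.0028). In SEMA5B, APCDD1, ESRRG and CRB2 replicate 2 of 12 h was the higher library, so the size of the fall rests in part on it.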

How the data were processed

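RNA of 16 libraries of day 19 PP cells was sequenced in the study, and 5 of them make up the main comparison. The authors deposited a table of 177456 transcripts for each library with estimated counts and TPM. Its format is that of Salmon (1.3.0 in the submitters' processing notes, which also name hg38 and DESeq2), whereas the methods text describes STAR and names a GENCODE annotation for it. The transcript set and strand setting behind the Salmon-format values are not given in the sources used here. A further table holds the authors' own fold changes and p-values and normalized values of 16 libraries, and none of it was used. Such estimates share reads out between transcripts, and values of genes that have a near-identical copy are uncertain.

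Estimated counts were summed per gene through GENCODE 44 (GRCh38), which matched 165533 transcripts, and were rounded; 2.917 to 3.167% of reads had no match. With 23609727 to 33515398 reads per library, intervals for counting error are narrow for all but the lowest genes. All 16 libraries in 6 groups were fitted in edgeR 4.0.16 (R 4.3.3, TMM scaling, filterByExpr, quasi-likelihood test, two-sided), and p-values were adjusted by Benjamini-Hochberg over 16705 genes, with calls at 0.05. The script was tested on simulated counts. CPM are TMM-scaled, and differences between libraries are in log2 CPM with a prior count of 2. The deposited TPM, summed per gene, entered limma 3.58.1 on log2(TPM + 1), and DESeq2 1.42.0, other scalings, filters, thresholds and the control 24 h reference, the replicate number as a block, and leaving out each library were the other alternatives. The position between 6 h and 24 h is a projection on the line between the group means.

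The members and the 46 gene lists were chosen with earlier results of these data known. Of the list members, 27 fell under the filter and 3 were not analysed here. Genes were named by a rule: the 15 largest rises and 15 largest falls among agreeing genes at a mean log2 CPM of at least 3, the 3 largest agreeing changes and 2 largest differences between the 12 h libraries in each list, the genes of the study's panel and those shared with laminin-411, the 10 largest differences each way between the 12 h libraries, and the 5 largest called changes each way between 12 h and its neighbours in time. Genes on chromosome Y and XIST were left out. A few genes that the rule names are not reported here. ACTB, ACTG1, ALB, AXL, BMP2, CDH1, CDH5, CNN1, CNN2, DCN, DSP, FHL2, FLNA, HES4, HES6, ID2, ID4, ISL1, LATS2, MDM2, NKX6-1, NOTCH1, NOTCH2, PAX6, PCSK2, PTF1A, SRF and TPM4 fall outside that rule and were named after their values were seen. Promoters came from RefSeq tables on GRCh38.p14.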

Additional observations from a re-analysis of the deposited data

Results flagged for a closer look

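Results are listed here because a direct test found that 12 h differed from its neighbours in time. The edgeR test called 4837 genes between 12 h and 6 h and 1952 between 24 h and 12 h. With only the groups compared in the fit these counts were 1593 and 0. The rises of COL3A1, LUM and COL5A2 given next were carried by 12 h replicate 2. From 6 h to 12 h the largest rises by log2 fold change were those of COL3A1 (2.60), SULT1E1 (2.38), LUM (2.33), COL5A2 (2.22) and TIMP3 (2.06), and the largest falls those of CP (-2.60), SLC26A3 (-2.15), TRPC4 (-2.05), RASD1 (-2.02) and B3GNT7 (-2.01). From 12 h to 24 h CCN2 (2.71), CCN1 (1.92), ANKRD1 (1.67), OR2I1P (1.66) and SAMD4A (1.52) rose most, and EDN3 (-2.32), SEMA5B (-2.12), APCDD1 (-2.07), ESRRG (-1.96) and CRB2 (-1.88) fell most. No group holds 4 or more libraries, so no search for a library far from the others of its group was made.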

How the results depend on the processing

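The 5988 genes called at 12 h against 0 h came to 2828 with only the 5 libraries compared in the fit, to 3738 at an adjusted p under 0.01 and to 1266 with a log2 change of at least 1 as well. Genes called higher (3189) came to 1307, 1964 and 688 under the same settings and to 2042 with limma on TPM, and genes called lower (2799) to 1521, 1774 and 578. Agreeing genes (4734) came to 2403, 3088 and 535, and they have no count when a 12 h library is left out. When 1 library of 12 h was left out, the fit assumed that the lone library varies like those of the other groups. The 4837 genes called against 6 h came to 1593 with only the groups compared and 2786 with limma, and ran from 2861 (without 12 h replicate 2) to 6219 when a library was left out. The 1952 called between 24 h and 12 h came to 0 with only the groups compared (2542 at an unadjusted p under 0.05, against 4582 with all groups), 751 with limma and 852 (without 24 h replicate 3) to 3713 (without 12 h replicate 1) when a library was left out, with 1074 without 24 h replicate 2. Over all lists, 342 members were called and 204 with only the groups compared. No scaling between libraries moved the median of all genes from 0.01 to 0.03 and the share of higher calls from 53.3 to 56.6%.

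With only the groups compared, heat shock genes called higher came from 8 to 5, p53 targets from 7 to 3, mesenchyme markers from 4 to 0, basement membrane genes called lower from 5 to 2 and mitochondrially encoded genes called lower from 2 to 0. In the same setting genes called higher came to 4 of the WNT pathway, 4 of the endocrine granule, 2 progenitor factors, 6 of the integrated stress response, 7 lysosome genes, 3 ribosomal protein genes, 6 liver markers and 1 mitosis gene. With limma, p53 targets came to 3, mesenchyme markers to 2, mitochondrially encoded genes to 5, the WNT pathway to 4, the endocrine granule to 6, the integrated stress response to 7 and liver markers to 6. With no filter on low counts 5 mitochondrially encoded genes were called lower, and against control 24 h 1 basement membrane gene was. When 1 library was left out, the counts ran from 5 to 9 for heat shock, 2 to 11 for p53 targets, 0 to 10 for mesenchyme markers, 3 to 10 for basement membrane genes and 0 to 13 for mitochondrially encoded genes. Other counts of list members named here as a main result (MRTF-SRF, YAP, BMP, NF-kB, junctions, endocrine factors, cholesterol) stayed within 1.5 times of the reported count under every alternative run.

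By log2 fold change, the direction turned without 12 h replicate 2 for TNC (-0.24 to 2.95), NID2 (-0.14 to 2.25), WNT5A (-0.091 to 1.98), SPP1 (-0.51 to 3.21), CDKN1A (-0.021 to 1.61), GDF6 (-0.15 to 2.83), AXL (-1.14 to 0.91) and COL5A2 (-0.032 to 2.58), each given as the value without replicate 2 and then without replicate 1. It turned without replicate 1 for SPOCK2 (-0.18, and 2.16 without replicate 2), and against control 24 h for INS (-0.64). AXL was called only when a 12 h library was left out. Of the other named genes not called with all libraries, 13 turned without replicate 2, among them FBN2 (-0.65), DCN (-0.21) and ISL1 (-0.10), and 3 without replicate 1, among them AXIN2 (-0.14). The cause was not tested. Genes that differed by at least 1 between the 12 h libraries numbered 339, and 134 at a mean log2 CPM of at least 5.

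The 12 h and 0 h libraries share 2 replicate numbers, and the deviations of same-numbered libraries had correlations of -0.038 and -0.027. The 2 libraries of 12 h deviate from their mean by equal and opposite amounts, so these values cannot show whether the numbers pair the libraries. The main fit did not use the numbers as pairs. With the replicate number as a block, the genes called between 24 h and 12 h came to 1093 and mitochondrially encoded genes called lower to 0, and 8 of the genes named lost their call at 12 h against 0 h.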

Other observations

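Further gene groups at 12 h against 0 h, beside 19.1% of all genes called higher and 16.8% called lower, gave the following values. Of 18 genes of the unfolded protein response, 8 were called higher and 2 lower, with a median log2 fold change of 0.18. DNAJB9, a chaperone of the endoplasmic reticulum, was at 33.3, 29.99 and 32.7 CPM at 0 h and 51.9 and 53.5 CPM at 12 h (log2 fold change 0.72, SE 0.06, edgeR adjusted p 3.64e-06), and HERPUD1, which helps clear misfolded proteins, at 23.95, 24.7 and 25.6 CPM and 38.7 and 52.8 CPM (log2 fold change 0.89, SE 0.10, edgeR adjusted p 2.19e-05). Tubulins split: of 12 measured 4 were called higher and 2 lower. TUBB3, the tubulin of neurons, was at 249.7, 263 and 276 CPM at 0 h and 464 and 370.1 CPM at 12 h (log2 fold change 0.67, SE 0.10, edgeR adjusted p 0.000294), while TUBB6 was at 35.03, 31.6 and 31.01 CPM and 11.02 and 19.2 CPM (log2 fold change -1.10, SE 0.20, edgeR adjusted p 0.000981). Of the 8 subunits of TRiC, the chaperonin that folds actin and tubulin, 4 were called higher and 0 lower, with CCT3 at 212, 199 and 203 CPM and 265 and 255 CPM (log2 fold change 0.35, SE 0.05, edgeR adjusted p 0.000181).

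Subunits of the replicative helicase differed: MCM2 was at 53.01, 51.4 and 52.3 CPM at 0 h, 36.2 and 42.6 CPM in control 24 h and 79.8 and 88.6 CPM at 12 h (log2 fold change 0.69, SE 0.09, edgeR adjusted p 7.16e-05), and MCM6 at 51.4, 45.4 and 45.9, 37.4 and 41.02 and 28.3 and 38.9 CPM in the same groups (log2 fold change -0.50, SE 0.11, edgeR adjusted p 0.0043). The call of MCM6 was lost against control 24 h (log2 fold change -0.22), with only the groups compared in the fit and with limma. Over 30 genes of replication and S phase 2 were called higher and 4 lower, and 12 were lower without 12 h replicate 2. Against control 24 h 17 were called higher and 1 lower, where 18.4% and 15.7% of all genes were, and the median turned from -0.15 to 0.45. LIN28A, an RNA-binding protein of early development, was at 414, 406 and 385 CPM at 0 h and 260.4 and 257 CPM at 12 h (log2 fold change -0.63, SE 0.09, edgeR adjusted p 0.000102). DCX, doublecortin of migrating neurons, which endocrine progenitors also make, was at 32.7, 34.01 and 39.2 CPM and 112 and 166 CPM (log2 fold change 1.98, SE 0.17, edgeR adjusted p 2.48e-06), above 0 h in both libraries. CDX2, a factor of the intestine, was at 85.5, 80.5 and 71.2 CPM and 52.7 and 28.3 CPM (log2 fold change -0.97, SE 0.21, edgeR adjusted p 0.0025), lower in both. Of 6 islet hormones 2 were called higher. INS, insulin, was at 0.159, 0.335 and 0.127 CPM at 0 h, 1.49 and 1.19 CPM in control 24 h and 0.831 and 0.879 CPM at 12 h, so the level at 12 h was under that of control 24 h, and its call against 0 h (log2 fold change 1.99, SE 0.73, edgeR adjusted p 0.0474) was lost when 0 h replicate 1 or 3 or either 12 h library was left out.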
